A study of Mus musculus with 4 samples.

Results

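Keratins, claudins and related genes that mark bile duct and other epithelial cells were examined in total liver RNA of PEPCK-TAg transgenic and wild-type mice. The set holds 10 genes: the keratins Krt8, Krt18 and Krt19, the claudins Cldn1, Cldn3 and Cldn7, the adhesion molecules Cdh1 and Epcam, osteopontin (Spp1) and the collagen receptor Ddr1. The members were all probe sets, on Affymetrix MG_U74Av2 arrays, whose single gene symbol in the platform's annotation is in this list. This gave 13 of the 12422 probe sets that are not array controls, and they cover 9 of the 10 genes, of 8251 genes with such a probe set in all. Spp1 had no probe set with its symbol alone and was not analysed here.

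Each group had 2 arrays, and nothing in the sources used here says that these came from separate animals, so the p-values cover array-to-array spread alone, which may be technical. The PEPCK-TAg mice carry a transgene for the SV40 large T and small t oncoproteins, named after the promoter of phosphoenolpyruvate carboxykinase, a promoter active in hepatocytes and raised by diets low in carbohydrate. The wild-type (WT) mice carry no transgene. All mice were males of a B6SJL hybrid strain, 50 to 66 days old, and had been kept from weaning on a diet of 65% protein and 10% carbohydrate for 4 weeks. The hepatocyte markers were bright on every array, with 10 of 10 genes tested and summed signals of 59939 and 76967 on the PEPCK-TAg arrays, against 102630 and 107145 on the WT arrays. The difference of these markers depended on the scaling. Their median log2 difference, PEPCK-TAg minus WT, was -0.57, but 0.023 under quantile normalization. The median signal of all probe sets was 77.0 and 84.7 on the PEPCK-TAg arrays, against 68.5 and 66.6 on the WT arrays. In RNA of whole liver, fewer cells of a type and less RNA per cell cannot be told apart.

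Keratins form the intermediate filaments of epithelial cells, always as a pair of an acidic (type I) and a basic (type II) chain. Hepatocytes make the pair Krt8 and Krt18, whereas the cells that line the bile ducts, the cholangiocytes, add Krt19 and Krt7. Claudins are the membrane proteins that seal tight junctions, and in liver these junctions close the bile canaliculus between hepatocytes and the lumen of the ducts. E-cadherin (Cdh1) joins neighbouring epithelial cells at adherens junctions, Epcam is a surface protein of cholangiocytes and hepatic progenitors, and Ddr1 is a receptor tyrosine kinase of epithelial cells that binds collagen.

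In PEPCK-TAg liver 3 members rose: Krt18 by 2.12-fold, Ddr1 by 2.75-fold and Cldn7 by 5.57-fold, with both of its WT arrays set to the floor given below. Krt8, Cldn1, Cldn3 and Cdh1 did not pass the test, and the duct markers Krt19 and Epcam lay below the level needed for a test on all 4 arrays. Signals under 10.6, the 20th percentile of all signals, were set to that floor, and a probe set was tested where at least 2 of the 4 arrays lay above 41.3, the 40th percentile. Of the 13 member probe sets, 9 were tested, and 3 of the 9 were called higher and 0 lower by limma at an adjusted p of 0.05 (at an unadjusted p of 0.05, 5 of the 9). Over all 7877 probe sets tested, 9.1% were called higher and 3.4% lower. The groups did not overlap, with PEPCK-TAg higher, in 7 of the 9, where the share over all probe sets tested was 33.3%, and with PEPCK-TAg lower in 0 of the 9, where it was 26.5%. The log2 difference was above 0 in 8 of the 9, against 53.1% of all probe sets tested. The median log2 difference, PEPCK-TAg minus WT, was 0.62 for the 9 and 0.051 for all probe sets tested. The probe sets of Cldn7 and Ddr1 passed the filter through the PEPCK-TAg arrays alone, so they could only be tested because they were higher there. Both count among the 3 called, the 7 without overlap and the 8 above 0. Among the 7 member probe sets whose WT arrays both exceeded the filter level, 1 was called higher, that of Krt18, against 6.08% of the 6808 such probe sets in all. The median log2 difference was 0.60 for these 7 and -0.034 for the 6808. The members were chosen with earlier results of these data known. The shares over all probe sets therefore only describe them, and no excess of the set can be read from them.

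**Figure D1:**
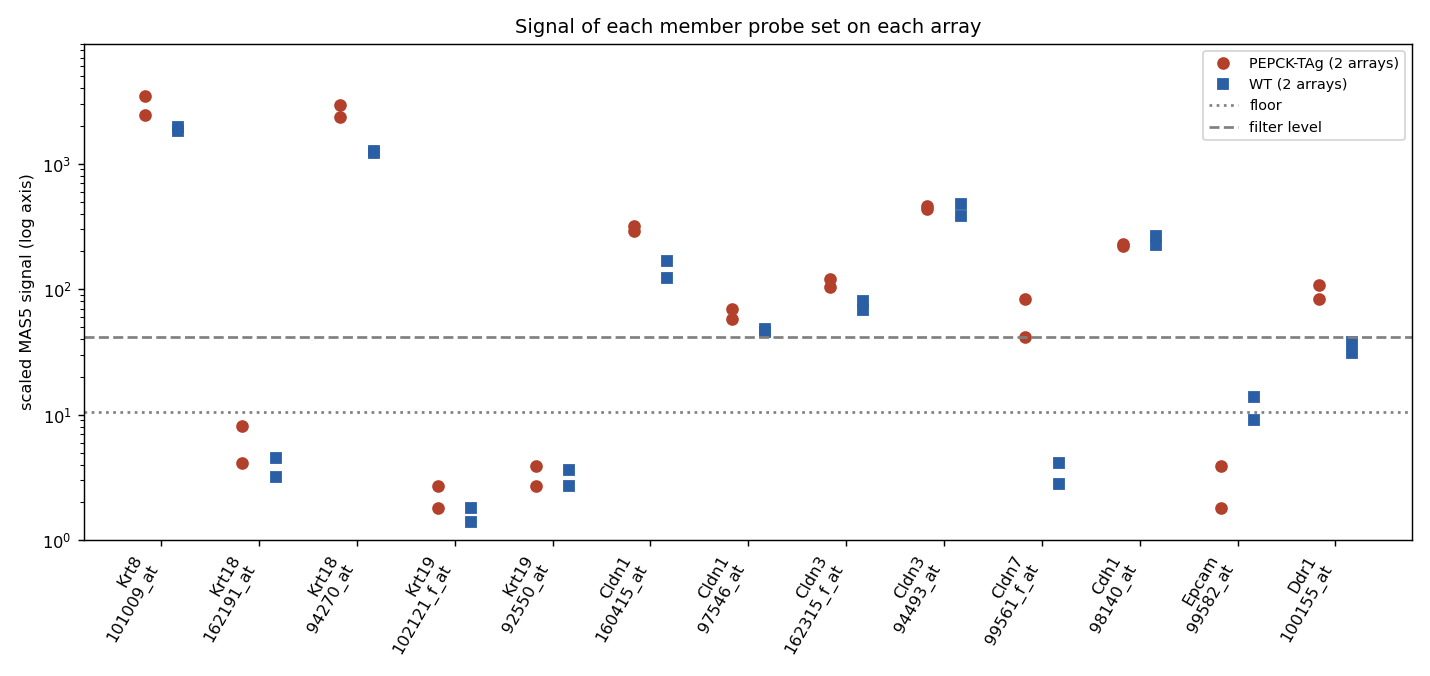
Scaled MAS5 signal (log axis) of each of the 13 member probe sets, with the 2 PEPCK-TAg arrays as circles and the 2 WT arrays as squares; the dotted line is the floor at 10.6 and the dashed line the filter level at 41.3. Both groups of Krt8 and Krt18 (94270_at) lie far above the filter level, Cldn7 crosses it only on the PEPCK-TAg arrays, and Krt19 lies below the floor on every array.

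Krt18 is the type I keratin of hepatocytes and of all simple epithelia. Its probe set 94270_at read 2355 and 2928 on the PEPCK-TAg arrays, against 1229 and 1254 on the WT arrays. Both PEPCK-TAg arrays were high and the groups did not overlap. The log2 difference was 1.08 ± 0.23 (limma's moderated SE, n = 2 arrays per group, here and throughout), with a limma adjusted p of 0.0283. The pair of arrays scanned on the same day, PEPCK-TAg 1 and WT 1, differed by 0.94 on the log2 scale. With the fluidics station as a block, which in effect leaves out PEPCK-TAg 2, the value was 0.92 and the limma adjusted p 0.232. A further Krt18 probe set, 162191_at, read 4.10 and 8.20 on the PEPCK-TAg arrays, against 4.50 and 3.20 on the WT arrays. It lay below the floor on all 4 arrays and carries no information on the change.

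Krt8, the type II partner of Krt18, read 2441 and 3475 on the PEPCK-TAg arrays, against 1949.6 and 1834 on the WT arrays. The groups did not overlap, but the PEPCK-TAg arrays stood further apart from each other than the WT arrays did. The log2 difference of 0.62 ± 0.25 did not pass the test (limma adjusted p = 0.156), and its 95% interval ran from 0.018 to 1.23. That interval overlaps the one of Krt18, 0.54 to 1.63, and whether the 2 partners changed by different amounts was not tested. In the same-day pair the Krt8 difference was 0.32.

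Krt19, the type I keratin of bile duct cells, has 2 probe sets. The first, 92550_at, read 2.70 and 3.90 on the PEPCK-TAg arrays, against 2.70 and 3.60 on the WT arrays. The second, 102121_f_at, read 1.80 and 2.70 on the PEPCK-TAg arrays, against 1.80 and 1.40 on the WT arrays. All 8 values lay below the floor and no difference can be given. The f in the name of the second marks probes that match a family of similar transcripts, in Affymetrix naming.

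Krt8 and Krt18 lie next to each other in the RefSeq annotation (GRCm38.p6), with 2 non-coding genes and 0 protein-coding genes between them. Their promoter windows, 250 bases before to 50 bases after the RefSeq start, are shown because the partners form 1 filament. Capitals mark matches on either strand to 5 motifs: CACCTG, an E-box bound by the epithelial repressors of the Snail and ZEB families, GGGCGG, the GC box of Sp1, TATAAA, the TATA box, TGANTCA of AP-1 and TTTNNCGC of E2F, the factors that RB proteins restrain.
Krt18 (chr15:102027966-102028265, plus strand): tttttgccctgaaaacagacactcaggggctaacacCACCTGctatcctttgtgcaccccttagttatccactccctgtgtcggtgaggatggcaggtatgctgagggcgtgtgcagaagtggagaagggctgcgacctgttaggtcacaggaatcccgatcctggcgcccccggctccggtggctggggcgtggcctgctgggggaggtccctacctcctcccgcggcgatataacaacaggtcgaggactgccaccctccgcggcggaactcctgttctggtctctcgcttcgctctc
Krt8 (chr15:102004293-102004592, minus strand): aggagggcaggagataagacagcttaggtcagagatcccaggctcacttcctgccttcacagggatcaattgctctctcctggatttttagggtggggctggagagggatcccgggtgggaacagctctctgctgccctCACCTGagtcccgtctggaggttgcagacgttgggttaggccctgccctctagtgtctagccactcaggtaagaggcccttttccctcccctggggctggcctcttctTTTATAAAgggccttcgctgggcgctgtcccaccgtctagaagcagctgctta
Each window holds 1 match to the E-box letters, which begins 214 bases before the start in Krt18 and 111 bases before it in Krt8. Of all 32851 promoter windows of this length, 20.2% hold these letters. Krt8 has 2 overlapping matches to the TATA letters at the start itself, and 13.6% of all windows hold any. No window of the members that has an entry held the E2F letters, which stand in 5.17% of all windows. Such matches describe the letters only.

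Claudin 7 (Cldn7) is typical of ducts, gut and other epithelia. Its probe set 99561_f_at read 41.8 and 83.3 on the PEPCK-TAg arrays, against 4.10 and 2.80 on the WT arrays. Both WT arrays lay below the floor, and PEPCK-TAg 1 was barely above the filter level. The difference against the floor was at least 5.57-fold (log2 2.48 ± 0.53, limma adjusted p = 0.0293). The floor gave the WT arrays a spread of 0, so the SE holds no spread from WT. Under a higher floor (40th percentile) the value was 0.51 and no longer passed (limma adjusted p = 0.369), and under a lower one (10th percentile) it was 3.71. The same-day pair differed by 1.98. The probes match a family of similar transcripts, so related sequences may add to these values.

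Claudin 1 (Cldn1) is a claudin that hepatocytes share with ducts. Its brighter probe set, 160415_at, read 319.7 and 289.9 on the PEPCK-TAg arrays, against 122.9 and 166.7 on the WT arrays. The groups did not overlap and the log2 difference was 1.09 ± 0.28, just outside the threshold (limma adjusted p = 0.0520). Its 95% interval ran from 0.42 to 1.76, and the same-day pair differed by 1.38. The call turned in 7 of 18 alternative settings. These include the looser adjusted p of 0.1 on the same fit. The fit without WT 2 and the scanner type as a block, also among them, are in effect the same comparison (1.31 in both). Under quantile normalization the value was 0.86 and did not pass (limma adjusted p = 0.101). The dimmer probe set, 97546_at, read 58.3 and 69.6 on the PEPCK-TAg arrays, against 45.5 and 48.5 on the WT arrays. It had the same sign, at 0.44 ± 0.35 on the log2 scale (limma adjusted p = 0.441).

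Claudin 3 (Cldn3), found in hepatocytes and ducts, showed no difference that its probe sets shared. Probe set 94493_at read 458.5 and 437.1 on the PEPCK-TAg arrays, against 382.2 and 475.3 on the WT arrays, and these groups overlapped. Its log2 difference was 0.071 ± 0.25 (limma adjusted p = 0.875), with a 95% interval from -0.52 to 0.66, and it turned to -0.057 under quantile normalization. Probe set 162315_f_at, of the family type, read 121.1 and 104.0 on the PEPCK-TAg arrays, against 80.0 and 68.2 on the WT arrays. Its log2 difference was 0.60 ± 0.31 (limma adjusted p = 0.241).

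The promoter windows of Cldn7, which has 2 annotated starts, and of Cldn1 are shown as well. Whether these claudins changed by different amounts was not tested. The probe set does not say which Cldn7 start was used. Capitals mark the same motifs as above.
Cldn7, first start (chr11:69964529-69964828, plus strand): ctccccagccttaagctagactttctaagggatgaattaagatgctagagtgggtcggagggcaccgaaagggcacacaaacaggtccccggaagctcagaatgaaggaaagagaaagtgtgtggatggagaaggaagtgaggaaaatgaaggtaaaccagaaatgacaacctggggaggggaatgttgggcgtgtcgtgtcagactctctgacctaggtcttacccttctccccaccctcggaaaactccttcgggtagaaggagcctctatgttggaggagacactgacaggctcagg
Cldn7, second start (chr11:69965171-69965470, plus strand): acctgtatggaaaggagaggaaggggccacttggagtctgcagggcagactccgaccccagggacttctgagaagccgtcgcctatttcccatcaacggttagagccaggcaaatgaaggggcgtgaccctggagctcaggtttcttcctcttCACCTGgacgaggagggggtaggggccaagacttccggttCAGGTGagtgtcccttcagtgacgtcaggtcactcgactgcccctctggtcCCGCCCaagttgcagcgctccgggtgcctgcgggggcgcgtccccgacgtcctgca
Cldn1 (chr16:26371790-26372089, minus strand): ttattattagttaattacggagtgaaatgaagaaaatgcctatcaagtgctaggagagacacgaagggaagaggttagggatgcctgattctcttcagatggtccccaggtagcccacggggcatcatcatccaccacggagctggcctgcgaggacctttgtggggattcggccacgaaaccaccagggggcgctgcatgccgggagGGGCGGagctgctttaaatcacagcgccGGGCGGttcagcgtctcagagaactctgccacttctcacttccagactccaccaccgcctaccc
The window of the first Cldn7 start held none of the 5 motifs. That of the second held 2 matches to the E-box letters, 97 and 57 bases before the start, and 1 to the GC box. The Cldn1 window held 2 GC boxes, 42 and 14 bases before the start, and no E-box letters. The GC box letters stand in 35.7% of all windows.

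E-cadherin (Cdh1), carried in liver by ducts and by the hepatocytes around the portal vein, did not pass the test. Its probe set 98140_at read 228.5 and 220.5 on the PEPCK-TAg arrays, against 223.8 and 263.9 on the WT arrays, and the groups overlapped. The log2 difference was -0.11 ± 0.25 (limma adjusted p = 0.796), with a 95% interval from -0.72 to 0.49. The interval leaves room for a fall or a rise of up to these sizes. Epcam read 1.80 and 3.90 on the PEPCK-TAg arrays, against 9.11 and 13.8 on the WT arrays. Of these values only that of WT 2 lay above the floor, so Epcam was not tested and no fold is given.

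Ddr1 read 83.0 and 107.3 on the PEPCK-TAg arrays, against 31.1 and 37.9 on the WT arrays. Both WT arrays lay between the floor and the filter level, so the probe set passed the filter through the PEPCK-TAg arrays alone. That the groups did not overlap was thereby fixed in advance. The log2 difference was 1.46 ± 0.36, 2.75-fold, with a limma adjusted p of 0.0467. The same-day pair differed by 1.42. The call was close to the threshold and was lost in 10 of 17 settings, although the value stayed between 1.19 and 1.64 in all of them. Ddr1 has 4 annotated starts, and its windows held between 7 and 39 CG dinucleotides, against a median of 7 over all windows.

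**Figure D2:**
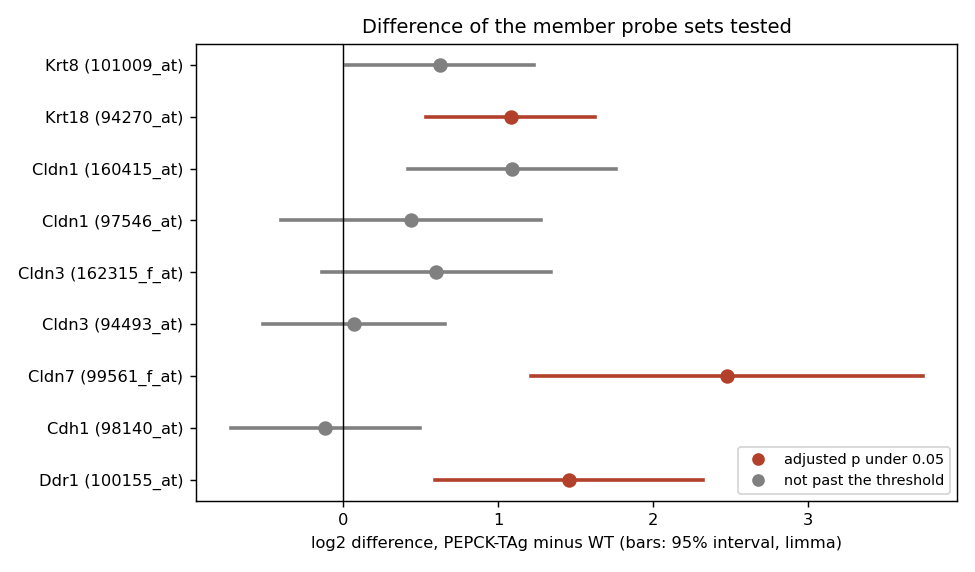
Log2 difference, PEPCK-TAg minus WT, of the 9 member probe sets tested, with 95% intervals from limma; coloured points passed an adjusted p of 0.05. Krt18 at 1.08, Ddr1 at 1.46 and Cldn7 at 2.48 passed, and the intervals of the lower Cldn1, both Cldn3 and the Cdh1 probe sets include 0.

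**Figure D3:**
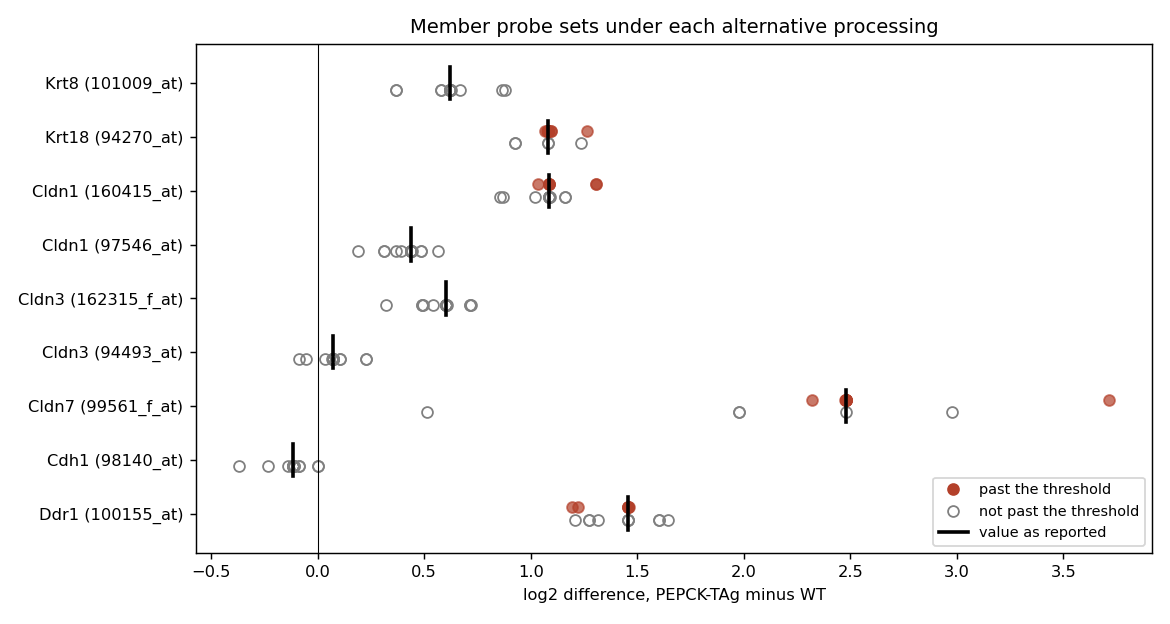
Log2 difference, PEPCK-TAg minus WT, of the same 9 probe sets under each alternative processing, with filled points past the threshold, open points not past it and a black bar for the value as reported. Krt18 stayed between 0.92 and 1.26, whereas Cldn7 ran from 0.51 to 3.71.

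Other genes of the same structures were taken from lists chosen with earlier results of these data known, with the brightest tested probe set for each gene; genes given here that did not pass, other than Cdh2, Ddr2 and Cd44, were named after their values were seen. Over all 7877 probe sets tested, limma called 9.1% higher and 3.4% lower, and the median log2 difference was 0.051. Because of how the lists were chosen, these shares only describe them. Of 8 other keratins tested, 0 passed in limma's test and 2 had an unadjusted p under 0.05. These 2 differed in direction. Krt10, a type I keratin of skin with no WT array above the filter level, was at 80.5 and 63.7 on the PEPCK-TAg arrays against 18.9 and 27.6 on the WT arrays (log2 difference 1.65, limma adjusted p = 0.0502). Krt17, a type I keratin of basal epithelia and skin appendages, was at 45.1 and 20.9 on the PEPCK-TAg arrays, against 178.9 and 70.9 on the WT arrays (-1.88, limma adjusted p = 0.0866). The groups did not overlap in Krt17. In Krt10 they could not overlap, because it passed the filter through the PEPCK-TAg arrays alone. Krt7, the type II keratin of bile ducts, was not tested, with 13.7 and 11.5 on the PEPCK-TAg arrays, against 30.0 and 8.20 on the WT arrays. The list's median log2 difference was -0.46.

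Of 7 other tight junction genes tested, 2 rose and 0 fell, where 9.1% and 3.4% of all probe sets tested did. Their median log2 difference was 0.63, against 0.051 for all. Tjp1 encodes ZO-1, the scaffold that ties claudins to actin. It read 622.7 and 624.3 on the PEPCK-TAg arrays, against 285.8 and 315.4 on the WT arrays (log2 difference 1.05 ± 0.23, limma adjusted p = 0.0327). Cxadr, an adhesion protein of tight junctions, read 327.7 and 183.4 on the PEPCK-TAg arrays, against 93.3 and 42.2 on the WT arrays (1.97 ± 0.48, limma adjusted p = 0.0436). Neither pair of groups overlapped, and neither gene passed under quantile normalization (limma adjusted p = 0.0564 and 0.0772). Occludin (Ocln) read 308.5 and 148.1 on the PEPCK-TAg arrays, against 45.4 and 116.0 on the WT arrays, a log2 difference of 1.56 that did not pass (limma adjusted p = 0.114).

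Of 18 genes of cadherins, catenins, desmosomes and gap junctions tested, 1 rose and 2 fell, with a median of 0.27. Of all probe sets tested, 9.1% rose and 3.4% fell. Desmocollin 2 (Dsc2), a desmosomal cadherin whose probes match a family of transcripts, read 445.2 and 417.2 on the PEPCK-TAg arrays, against 185.0 and 155.7 on the WT arrays (log2 difference 1.34 ± 0.25, limma adjusted p = 0.0190). The genes that fell were the connexins Gjb2 and Gjb1, which form the gap junctions of hepatocytes. Gjb2 read 1340.3 and 1386 on the PEPCK-TAg arrays, against 2983 and 3246 on the WT arrays (log2 difference -1.19, limma adjusted p = 0.0165). Gjb1 read 533.2 and 468.0 on the PEPCK-TAg arrays, against 942.1 and 1300.8 on the WT arrays (-1.15, limma adjusted p = 0.0355). The groups did not overlap in either connexin, and both stayed past the threshold under quantile normalization (limma adjusted p = 0.0266 for Gjb2 and 0.0367 for Gjb1). N-cadherin (Cdh2), the other classical cadherin of hepatocytes, gave 0.41 on the log2 scale (limma adjusted p = 0.377), and beta-catenin (Ctnnb1) 0.24 (limma adjusted p = 0.495).

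Of 19 other markers of bile duct and progenitor cells tested, 7 rose and 0 fell, where 9.1% and 3.4% of all probe sets tested did. Their median was 0.61, against 0.051 for all. Both WT arrays exceeded the filter level in 14 of the 19, and 4 of these 14 rose, namely Cd24a, Anxa4, Anxa2 and Notch2. Of all such probe sets, 6.08% rose. As the list was chosen with earlier results known, these shares only describe it. The other rises, Prom1, Slc5a1 and Tspan8, had no WT array above that level and could be tested only because they were higher in PEPCK-TAg liver. The surface protein Cd24a, carried by progenitor cells of liver and by precursors of blood cells, read 1969 and 2766 on the PEPCK-TAg arrays, against 59.7 and 75.1 on the WT arrays (log2 difference 5.12, limma adjusted p = 0.000507). Prominin 1 (Prom1, CD133), a marker of stem and progenitor cells, read 236.2 and 535.2 on the PEPCK-TAg arrays, against 23.6 and 39.3 on the WT arrays (3.54, limma adjusted p = 0.00630). A further Prom1 probe set rose as well (3.83, limma adjusted p = 0.00639). The sodium and glucose transporter Slc5a1, present on cholangiocytes, read 204.6 and 172.6 on the PEPCK-TAg arrays, against 15.9 and 4.00 on the WT arrays. With WT 2 set to the floor the difference was 14.5-fold (limma adjusted p = 0.00251). In each of these 3 genes the groups lay far apart. The tetraspanin Tspan8 read 81.2 and 97.9 on the PEPCK-TAg arrays, against 7.61 and 5.30 on the WT arrays. With both WT arrays set to the floor the difference was 8.42-fold (limma adjusted p = 0.00681). Annexin A4 (Anxa4) read 1227 and 1561 on the PEPCK-TAg arrays, against 431.4 and 544.5 on the WT arrays (1.51, limma adjusted p = 0.0136). Anxa2 and Notch2 fall outside the rule for named genes and were named after their values were seen. They gave log2 differences of 1.46 and 1.60 (limma adjusted p = 0.0140 and 0.0325), and Notch2 did not pass under quantile normalization (limma adjusted p = 0.0600), while its other probe set was not tested. The 12 that did not pass ran from -0.73 for Cftr to 1.54 on the log2 scale for Sox4, whose other probe set gave 0.15. Besides Cftr, those below 0 were Dlk1 (-0.55), Onecut1 (-0.42), Slc4a2 (-0.32) and Fgfr2 (-0.16). Besides Sox4, those above 0 were Alcam, Aqp1, Muc1, Hes1, Elf3 and Cdhr5.

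**Figure D4:**
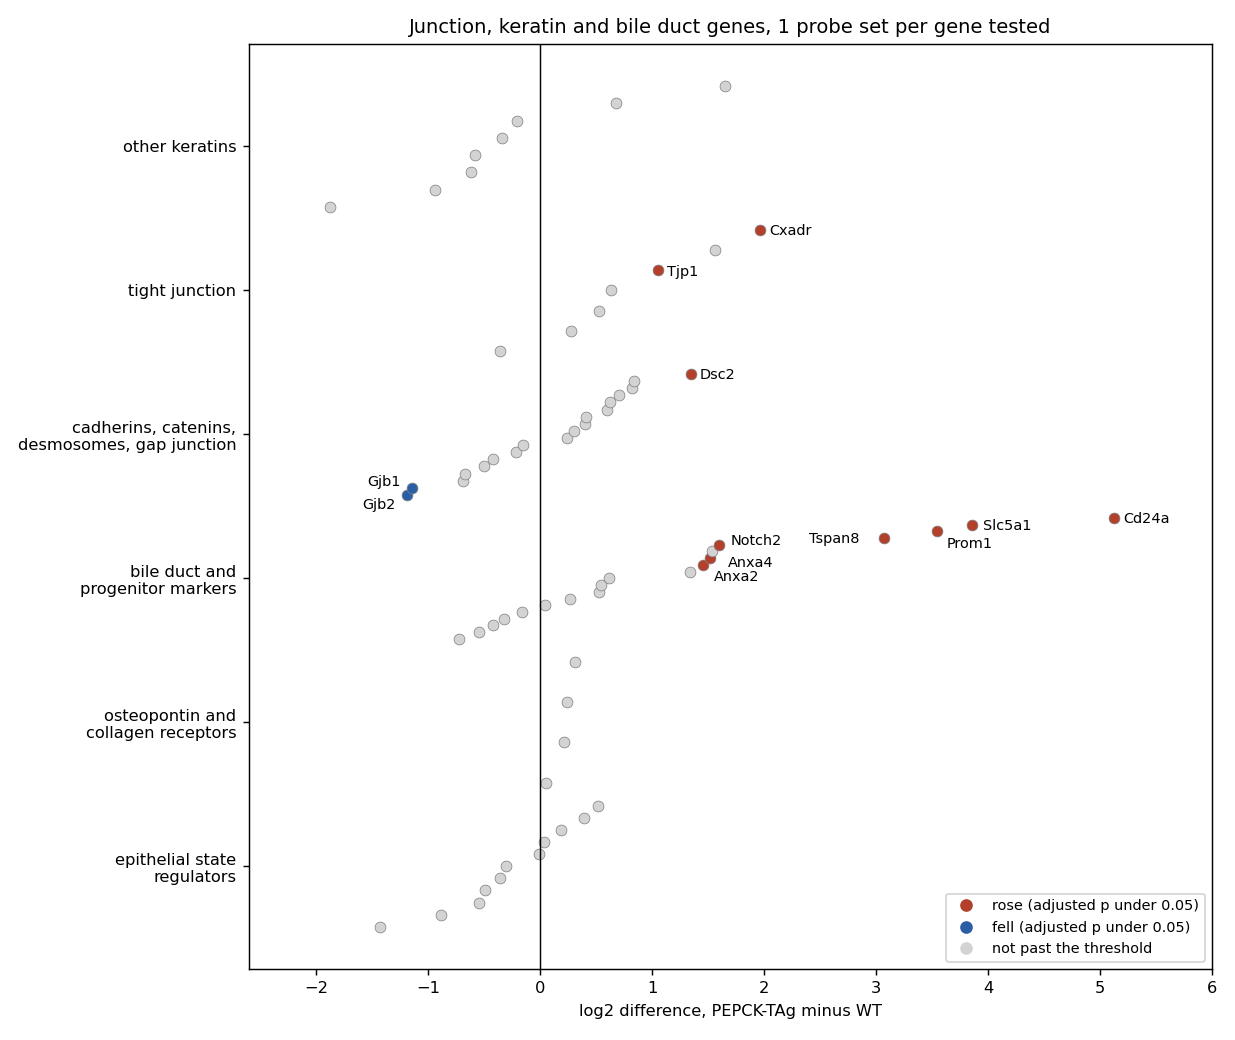
Log2 difference, PEPCK-TAg minus WT, of the genes tested in each list, 1 point per gene, coloured and named where the adjusted p was under 0.05. The 4 points to the right of 3 are bile duct and progenitor markers, and the called falls are the connexins Gjb1 and Gjb2.

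Receptors that bind osteopontin or collagen gave 0 rises and 0 falls among 4 genes tested by limma (0 at an unadjusted p of 0.05), with a median of 0.23. Ddr2, the collagen receptor related to Ddr1, read 76.9 and 14.4 on the PEPCK-TAg arrays, against 24.1 and 42.9 on the WT arrays (log2 difference 0.049, limma adjusted p = 0.978). The osteopontin and hyaluronan receptor Cd44 was not tested, with a brightest probe set at 5.89 and 11.5 on the PEPCK-TAg arrays, against 16.0 and 3.50 on the WT arrays. The integrin chain Itgb1 gave 0.22 on the log2 scale. Of 11 regulators of the epithelial state tested, 0 passed in limma's test and 2 had an unadjusted p under 0.05, with a median of -0.31. Snai2 and Zeb1, repressors that act through E-boxes, gave 0.034 and 0.52 (limma adjusted p = 0.950 and 0.286). Cebpa, a factor of mature hepatocytes, gave -0.88 (limma adjusted p = 0.0932), and -0.54 under quantile normalization (limma adjusted p = 0.196). Hnf4a, Foxa1 and Foxa2 of the same list gave -0.36, 0.39 and 0.19, and none of them passed.

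Markers of other cell types moved beside these genes. Over all probe sets tested, 9.1% were called higher and 3.4% lower, and 6.08% higher where both WT arrays exceeded the filter level. Of 9 markers of neutrophils and their precursors tested, 8 rose, and the summed signal of the 11 on the array was 7411 and 11459.5 on the PEPCK-TAg arrays, against 361.1 and 408.3 on the WT arrays. Of these 8 rises, 7 passed the filter only with the PEPCK-TAg arrays, and Camp alone had both WT arrays above the filter level. Lcn2 is among the 8, but its other tested probe set had the opposite sign and did not pass (-0.40, limma adjusted p = 0.450). Of 9 erythroid genes, 7 rose, 3 of them (Epb42, Hemgn and Rhag) with fewer than 2 WT arrays above the filter level, with sums of 8453 and 13076 on the PEPCK-TAg arrays, against 3877 and 4261 on the WT arrays. Of 16 Kupffer cell and macrophage genes tested, 5 rose, 1 of them (Lgals3) with no WT array above that level, with sums of 6925 and 8026 on the PEPCK-TAg arrays, against 3186.5 and 3033 on the WT arrays. Of 10 hepatocyte markers, 3 fell, namely Ttr, Tat and Cyp2e1, and 0 rose, with a median log2 difference of -0.57. This depended on the scaling: under quantile normalization the median was 0.023, Ttr and Tat fell, Cyp2e1 did not pass (-0.50, limma adjusted p = 0.0676) and Fgb rose (0.94, limma adjusted p = 0.0280). The differences of Alb, Apoh, Cps1 and Ahsg, none of which had passed, turned from below 0 to above 0. Stellate cell genes gave 1 rise of 7 (Col3a1, whose other tested probe set did not pass, and which did not pass under quantile normalization), endothelial genes 1 of 9 (Icam2, below the filter level on both WT arrays) and mesothelial genes 0 of 1, with Msln below the floor on all arrays. That mesothelial gene, Upk3b, gave -1.12 (limma adjusted p = 0.0808) and fell under quantile normalization (-1.39, limma adjusted p = 0.0474). The part of blood cells or of the hepatocyte marker signals in the rises of Krt18, Cldn7, Ddr1, Cd24a and Prom1 was not tested. The defining duct keratin Krt19 was below the floor on all 4 arrays and Epcam on 3 of them. Such readings do not show that a transcript was absent. For Krt18, probe set 162191_at also lay below the floor on all 4 arrays, while 94270_at read 1229 to 2928.

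**Figure D5:**
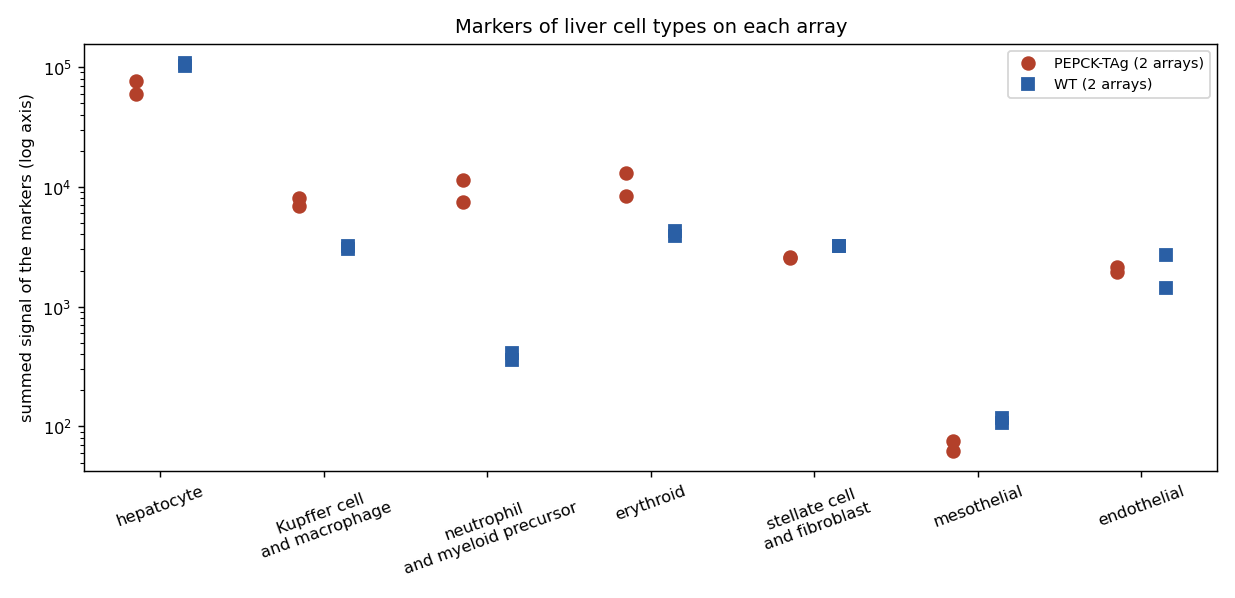
Summed signal (log axis) of the markers of each cell type on the 2 PEPCK-TAg arrays (circles) and the 2 WT arrays (squares). The neutrophil sums lie at 7411 and 11459.5 in PEPCK-TAg liver, against 361.1 and 408.3 in WT liver, and the hepatocyte sums are lower in PEPCK-TAg liver, where the median of these markers turned to 0.023 under quantile normalization.

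The arrays also differed in handling. Both PEPCK-TAg arrays came from the same chip lot and each WT array from another, so lot and group cannot be told apart. PEPCK-TAg 2 was washed on station 2 and the others on station 1, and WT 2 was read on another type of scanner. With the station as a block, 0 probe sets passed limma's test over the whole table, where 1432 passed an unadjusted p of 0.05. The values of Krt18, Cldn7 and Ddr1 were then 0.92, 1.98 and 1.27. With the scanner type as a block, which in effect leaves out WT 2, they were 1.10, 2.48 and 1.60. The 3'/5' signal ratio of the actin control probe sets, a measure of RNA integrity, also differed between arrays. It was 3.82 and 3.14 on the PEPCK-TAg arrays, against 4.33 and 3.41 on the WT arrays. For Gapdh it was 4.57 and 2.90 on the PEPCK-TAg arrays, against 5.35 and 3.80 on the WT arrays. The part of RNA integrity in the differences was not tested.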

How the data were processed

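The deposited values are intensities, 1 for each probe set on an array, made with MAS5 per the submitters' processing notes, on a linear scale and already scaled, with a 2% trimmed mean of 250.1 to 250.2 on each array. MAS5 version and detection calls were not used here. Each array was scaled again to a common trimmed mean without controls, a change of at most 0.102%, floored, and taken to log2. Differences between the groups were tested in limma (3.58.1, R 4.3.3; intensity trend, two-sided, Benjamini-Hochberg over all 7877 probe sets tested, 6.60 degrees of freedom). With 2 arrays a group, the smallest p of an exact permutation test is 0.333. The platform's annotation gives 1 symbol for 10833 probe sets. Promoter sequences are RefSeq's (GRCm38.p6) and cover 8 of the 10 genes. The array settings files gave lot, station, scanner and scan day. Titles share replicate numbers, which the labels do not call a pairing. The rule for named genes was all member probe sets, up to 5 called genes per list with the smallest p, and Cdh2, Ddr2 and Cd44. Further list genes were named after their values were seen. The members and lists were chosen with earlier results of these data known. The number of arrays limits the precision. Alternatives are given in the closing section.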

Additional observations from a re-analysis of the deposited data

How the results depend on the processing

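Over 18 alternatives, the 9 member probe sets tested gave 157 values, of which 126 kept direction and side of the threshold, 20 lost the call, 7 gained it and 4 turned sign. Krt18 kept its call in 13 of 18 settings, Cldn7 in 11 of 16 and Ddr1 in 7 of 17, and the cause of the losses was not tested. Of the member probe sets, 3 were called higher; the count was 1 under quantile normalization (where Cldn7 was not tested), 0 with no filter, 0 with the fluidics station as a block, and 0 to 3 with 1 array left out. At an unadjusted p of 0.05, limma gave 4 member probe sets with no filter and 3 with the station block. The count was 0 without PEPCK-TAg 1 and 0 without PEPCK-TAg 2 (4 and 3 at an unadjusted p of 0.05), where an arm of 1 array is assumed to vary like the other group. The count called lower was 0 throughout. Among all probe sets tested, 717 were called higher and 268 lower in limma's test; these became 129 and 36 with no filter, 1108 and 513 at an adjusted p of 0.1, 0 and 0 with the station as a block (1432 at an unadjusted p of 0.05), and 0 to 1049 and 0 to 400 with 1 array left out. The lowest counts came without PEPCK-TAg 1 or PEPCK-TAg 2, where 1348 and 1433 passed an unadjusted p of 0.05. With the replicate number as a block the counts were 1240 and 633, and the deviations of same-numbered arrays correlated at 0.253 over 7877 probe sets; with 2 pairs this does not establish a pairing. The block called 4 member probe sets, adding Cldn1 (160415_at, limma adjusted p = 0.0207). Quantile normalization moved the median of all differences by -0.139 on the log2 scale. Cldn3 (94493_at) turned to -0.057 under quantile normalization and to -0.086 without WT 1, and Cdh1 to 0.0041 without WT 2 and to 0.0041 with the scanner type as a block; with 1 array left out the ranges were -0.086 to 0.228 for Cldn3 and -0.23 to 0.0041 for Cdh1. A chip lot block could not be fitted beside the groups.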

Other observations

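Some genes of the lists did not pass the filter and are given as values with no test, named after their values were seen. Pkhd1, the fibrocystin of the cholangiocyte cilium, read 84.5 and 30.9 on the PEPCK-TAg arrays, against 24.6 and 14.7 on the WT arrays. Acta2, the smooth muscle actin of activated stellate cells, read 53.9 and 29.8 on the PEPCK-TAg arrays, against 10.4 and 10.8 on the WT arrays. Cldn4, a claudin of ducts, read 39.7 and 57.3 on the PEPCK-TAg arrays, against 40.04 and 9.10 on the WT arrays. The mesenchymal filament gene Vim read 20.9 and 40.9 on the PEPCK-TAg arrays, against 20.6 and 46.7 on the WT arrays, with overlap between the groups.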
